A study of Bos taurus with 6 samples.

Results

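The kinesin genes described here are the entries of the deposited gene table whose symbol begins with KIF or KIFC and a number, without KIF3A, KIF3B and KIF3C. This rule found 37 of the 47249 entries. Of these, 36 are motors or relatives of motors, and KIF1BP is a protein that binds kinesins and has no motor domain. KIF1B, KIF4B, KIF25 and KIF28 were not analysed here, and CENPE, a kinesin with another kind of symbol, was read among the partner genes. By role, 14 members work in the spindle or in cytokinesis, 7 in cilia, flagella or Hedgehog signaling, and 12 in cargo transport, while 3 are little known.

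Total RNA was sequenced from testes of Wandong cattle, after depletion of ribosomal RNA, in 2 age groups. The groups are immature calves (3 months, n = 3) and bulls that had reached maturity (3 years, n = 3). The animals were untreated, each library came from a single animal, and the question was how the testis differs before and after sexual maturity. Levels are FPKM, fragment numbers scaled to the length of the transcript and to the mapped fragments of the library, so levels of different genes can be compared per length. No read counts were given, the depth behind a value is unknown, and an FPKM value counts linear and circular RNA of a gene together.

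Kinesins are motors that use ATP to walk along microtubules or to shorten them. In dividing cells, they build the spindle, move chromosomes and complete cytokinesis, and in resting cells they carry vesicles, organelles and proteins. In the testis, spermatogonia and spermatocytes divide by mitosis and meiosis, and spermatids then build a flagellum and reshape the nucleus along a microtubule sleeve, the manchette. Several kinesins are known for roles in neurons, where axons depend on transport over long distances.

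The library labelled calf 3 stood apart before any kinesin was considered. The summed level of 16 neural markers was 170 FPKM in calf 1, 186 FPKM in calf 2 and 16304 FPKM in calf 3, against 84.1 to 88.5 FPKM in bulls, and all 16 were highest in calf 3. The summed level of 13 Sertoli and Leydig entries, which mark the somatic cells of the testis, fell from 3185 and 2593 FPKM in calf 1 and calf 2 to 15.3 FPKM in calf 3, and 7 of the 13 were listed at 0 in calf 3. In bulls this sum ranged from 1578 to 2867 FPKM. The Sertoli entries alone summed to 1786 and 1456 FPKM in calf 1 and calf 2 and to 117 to 148 FPKM in bulls. The Leydig entries summed to 1399 and 1137 FPKM in calf 1 and calf 2 and to 1461 to 2719 FPKM in bulls. The markers of calf 3 therefore went against its labelled tissue, and calls and fold changes below are given with all 6 libraries and again without calf 3. The 17 meiotic and spermatid markers were higher in each bull than in any calf, with sums of 4.22 to 25.2 FPKM in calves and 13904 to 15521 FPKM in bulls. In whole tissue, more cells of a type and more RNA per cell cannot be told apart. How far the cell make-up accounts for the kinesin results was not tested.

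Of the 37 kinesin genes, 35 reached 1 FPKM in 3 or more libraries and were tested. KIF12 and KIF26B did not reach that level, KIF2B reached it through the bulls only, and KIF26A reached it through the calves only, so a difference between the groups was built into these 2 and no p is given for them. A change was called where limma, fitted to log2(FPKM + 1) over all 18115 genes tested, gave a Benjamini-Hochberg adjusted p below 0.05 and a fold change of at least 2. With all libraries, 20 members were higher in bulls, 2 were lower and 13 were not called, while 35.7% of all genes tested were called higher and 9.61% lower. Without calf 3, 21 were higher and 2 lower, beside 37.9% and 13.6% of all genes, and 18 members had the same call in both fits. The median log2 fold change, bulls minus calves, was 1.81 over the members and 0.43 over all genes, and without calf 3 it was 1.23 and 0.43. All bulls were above all calves in 23 of the tested members, against 46.1% of all genes, and below all calves in 5, against 21.3%. The counts of higher members include KIF2B, and those of lower members include KIF26A where it was called. The filter had fixed the direction of both.

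Scaling moved these counts. Quantile normalization, which gives all libraries the same distribution, shifted the median over all genes to −0.26. Under it, 15 members were called higher and 4 lower, beside 21.1% and 25.1% of all genes, and the members' median was 1.14. Without calf 3 and under quantile normalization, 16 were higher and 5 lower, beside 22.4% and 29.1% of all genes. Median-of-ratios scaling, which shifted the median over all genes to 0.31, gave 18 higher and 3 lower, beside 33.7% and 11.8%. Leaving out any of the bulls gave 15 higher members, beside 33.7%, 33.4% and 33.3% of all genes called higher and 6.72%, 7.12% and 7.17% lower, since 7 calls were lost in each case, those of KIF11, KIF13A, KIF14, KIF20A, KIF20B, KIF22 and KIF26A. In these 3 fits, the log2 fold changes of the 7 genes kept their direction, and adjusted p-values of the 6 other than KIF26A ranged from 0.0576 for KIF13A to 0.117 for KIF20A. Under each of the 18 alternative settings in which they were tested, 12 members kept their call: KIF2B, KIF2C, KIF15, KIF23, KIFC1, KIF6, KIF9, KIF17, KIF24, KIF27, KIF21B and KIFC3. KIF2B is counted among them although it passed the filter through the bulls only.

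**Figure D1:**
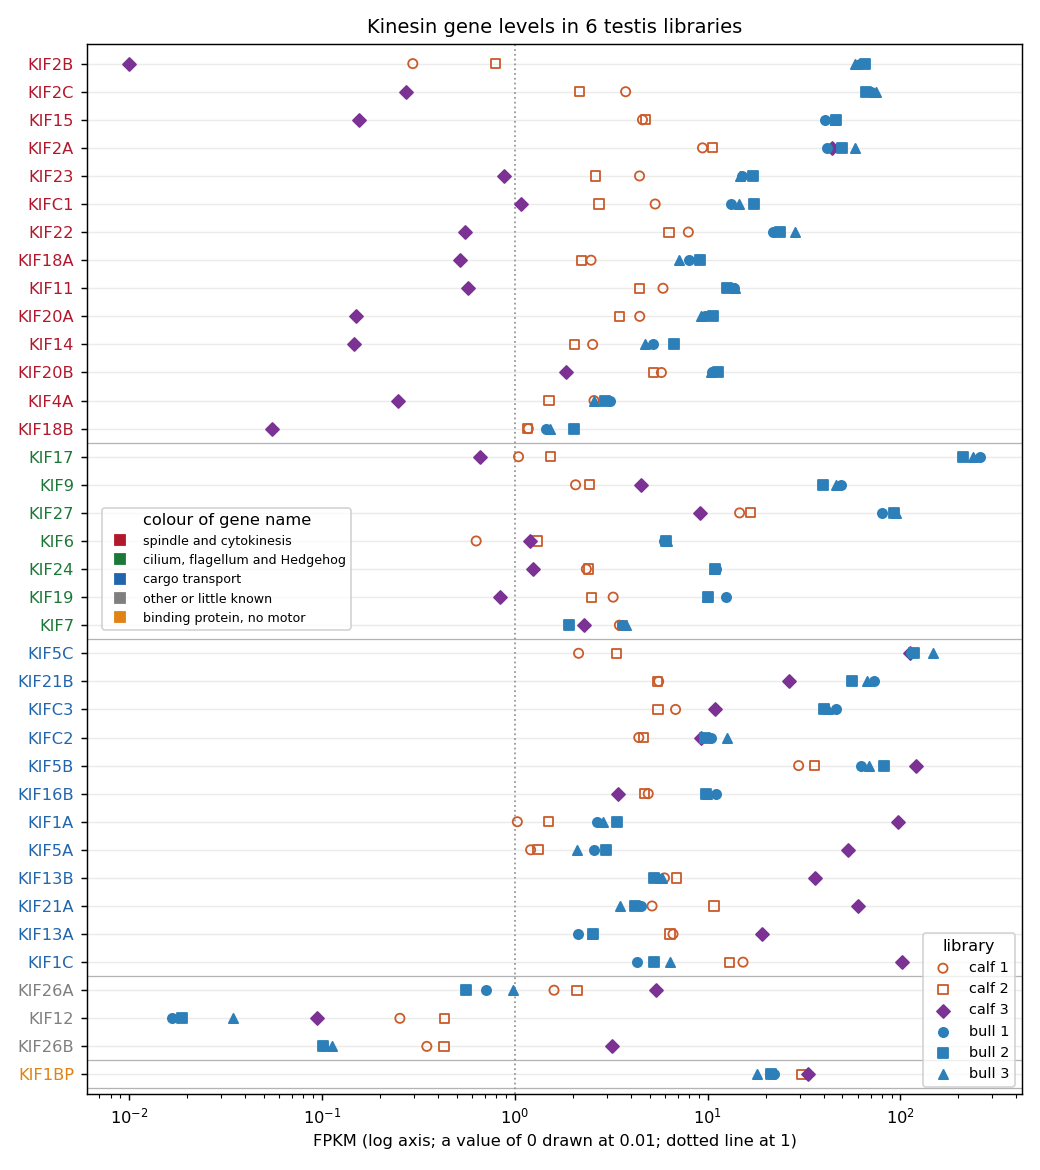
FPKM of the 37 kinesin genes (rows, grouped by role and colored by role) on a log axis, with 1 symbol for each of the 6 libraries, where a value of 0 is drawn at 0.01. The filled blue symbols of the bulls lie far to the right of the open symbols of calf 1 and calf 2 for KIF17, KIF2B and KIF2C, and the purple diamonds of calf 3 lie to the left of all others in 13 of 14 spindle genes and to the right in 7 of 12 cargo genes (21.9% of all genes tested are highest in calf 3).

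Summed over all members, the level was 200 and 214 FPKM in calf 1 and calf 2, 763 FPKM in calf 3, and 1099, 1076 and 1143 FPKM in the bulls. The order of the members differed with age. In bulls, the highest were KIF17, KIF5C, KIF27, KIF5B and KIF2C, which held 53.6% of the summed level. The highest in calf 1 and calf 2 were KIF5B, KIF1BP, KIF27, KIF1C and KIF2A, with 47.6%. The highest in calf 3 were KIF5B, KIF5C, KIF1C, KIF1A and KIF21A, with 64.5%. Between the bulls the members varied little, with a median coefficient of variation of 10.8%, and calf 1 and calf 2 were within 2-fold of each other, on the log2(FPKM + 1) scale, for all 35 tested members.

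Most kinesins of cilia and flagella were higher in bulls. Of the 7, 6 were called higher with all libraries, without calf 3 and under quantile normalization (35.7%, 37.9% and 21.1% of all genes), and KIF7 was not called. The 6 include KIF19, whose call was lost when only its Ensembl transcripts were counted, as described below. Summed over the 7, calf 1, calf 2 and calf 3 had 27.5, 30.5 and 19.8 FPKM and the bulls 421, 373 and 410 FPKM. KIF17, a motor of dendrites and cilia that in spermatids also moves the coactivator FHL5, had the largest change of any member. It lies on chromosome 2 from 131929743 to 131968598 (gene ENSBTAG00000017644, with positions as the table gives them on an ARS-UCD assembly). Calf 1, calf 2 and calf 3 had 1.05, 1.54 and 0.658 FPKM of it, and bull 1, bull 2 and bull 3 had 259, 211 and 237 FPKM, the order in which all values below are given. The bulls (236 ± 23.6 FPKM, SD, n = 3) were thus 182 times the mean of calf 1 and calf 2, and the groups did not come near each other. On the log2 scale the difference was 6.85 ± 0.20 (limma, with its standard error, adjusted p = 5.01e-06), and 6.69 ± 0.14 without calf 3 (adjusted p = 6.75e-07). KIF17 alone made up 19.6% to 23.5% of the summed kinesin level of each bull.

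KIF9, a motor of the central apparatus of the sperm flagellum on chromosome 22 (52361996 to 52428320), read 2.07, 2.45 and 4.51 FPKM in the calves and 48.9, 39.6 and 46.6 FPKM in the bulls. Its log2 fold change was 3.56 ± 0.26 (adjusted p = 9.88e-05) and 3.82 ± 0.14 without calf 3. KIF27, which works with the kinase STK36 in motile cilia and lies on chromosome 8 (77067526 to 77176341), was already among the higher members in calves, at 14.7, 16.7 and 9.11 FPKM, and reached 80.2, 92.6 and 95.5 FPKM in bulls. It rose by 2.68 ± 0.24 on the log2 scale (adjusted p = 0.000241), and by 2.44 ± 0.12 without calf 3. For both genes the lowest bull was well above the highest calf.

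KIF24, a centriolar kinesin that restrains the start of cilium growth, was 2.35, 2.41 and 1.25 FPKM in the calves and 11, 11 and 10.8 FPKM in the bulls, a log2 fold change of 2.02 ± 0.22 (adjusted p = 0.000494). KIF6, known from motile cilia, was 0.630, 1.3 and 1.20 FPKM against 5.93, 6.11 and 6.18 FPKM, a log2 fold change of 1.81 ± 0.19 (adjusted p = 0.000443). Neither gene depended on calf 3, with 1.82 and 1.87 without it. KIF7, which acts at the tip of the cilium in Hedgehog signaling, overlapped between the groups at 3.49, 3.62 and 2.28 FPKM in calves and 3.60, 1.91 and 3.76 FPKM in bulls (log2 fold change −0.03 ± 0.27, adjusted p = 0.934, and −0.19 without calf 3). The 3 listed markers of ciliated epithelium had no common direction. FOXJ1, the master regulator of motile cilia, read 0.25, 0.22 and 0.25 FPKM in calves and 10.8, 11.3 and 8.57 FPKM in bulls. TPPP3 went the other way, at 6.14, 6.38 and 20.4 FPKM against 3.04, 4.54 and 5.25 FPKM, and was not called with all libraries. SCGB1A1 read 0.653, 1.74 and 0 FPKM against 0.250, 0.239 and 0.164 FPKM.

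KIF19, which shortens microtubules at the ciliary tip, was called higher at the gene level, at 3.24, 2.49 and 0.839 FPKM in the calves and 12.5, 10 and 9.89 FPKM in the bulls (log2 fold change 1.97 ± 0.34, adjusted p = 0.00368). The value of each kinesin gene in the table is the sum over its transcripts, and 24 transcripts are listed for KIF19, of which many were assembled from the reads of the study. The Ensembl transcripts of KIF19 alone read 3.12, 2.16 and 0.0915 FPKM in calves and 2.41, 2.41 and 1.98 FPKM in bulls. The assembled ones read 0.114, 0.328 and 0.747 FPKM against 10.1, 7.62 and 7.91 FPKM, so the rise lay in them. On Ensembl transcripts only, the log2 fold change was 0.43 (adjusted p = 0.496), and −0.15 without calf 3 (adjusted p = 0.47). The locus on chromosome 19 (57050845 to 57112454) also overlaps GPRC5C and BTBD17. KIF19 was singled out after its values were seen.

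**Figure D2:**
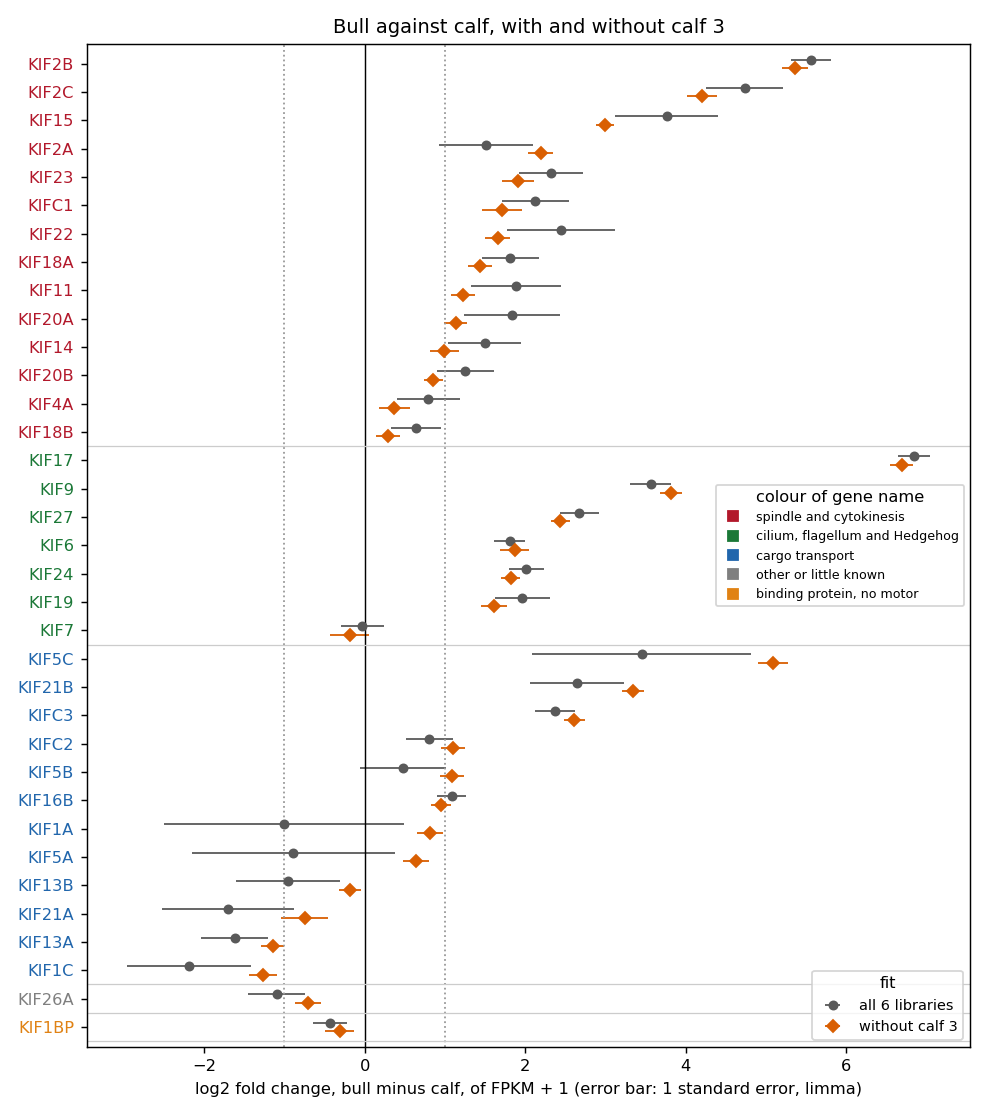
Log2 fold change of FPKM + 1, bulls minus calves, for the 35 tested members, from the limma fit of all 6 libraries (gray circles) and without calf 3 (orange diamonds), with bars of 1 standard error and dotted lines at a fold change of 2. Without calf 3 the bars are shorter, the spindle genes other than KIF2A move toward 0, and KIF1A and KIF5A change sign.

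The spindle and cytokinesis kinesins were called higher in bulls in 11 of 14 cases, or 10 without calf 3, and the others were not called, while 35.7% and 37.9% of all genes were called higher in these fits. Under quantile normalization 7 were called higher, beside 21.1% of all genes, and KIF11, KIF14, KIF20A and KIF20B lost their calls. KIF2B, which passed the filter through the bulls only, is among those called in each of these fits. Their levels in calf 3 were the lowest of all libraries for 13 of the 14, against 35.3% of all genes tested, with KIF2A as the exception. Summed over these 13, the level was 51.2, 39.5 and 6.46 FPKM in the calves and 275, 292 and 286 FPKM in the bulls. The 6 proliferation markers also had their lowest level in calf 3 and were higher in each bull than in any calf, with sums of 68.6, 52.7 and 15.4 FPKM and 198, 220 and 188 FPKM. Their part in the spindle results was not tested.

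KIF2B and KIF2C, which shorten microtubules from their ends, had the largest changes of this group. KIF2B, which acts at kinetochores and lies on chromosome 19 (3706963 to 3780161), read 0.296, 0.790 and 0 FPKM in the calves and 61.9, 65.4 and 57.9 FPKM in the bulls. The bulls were 114 times the mean of calf 1 and calf 2, and the fitted log2 fold change was 5.56 ± 0.25, or 5.36 without calf 3. KIF2C, the centromeric member on chromosome 3 (101248621 to 101276330), read 3.76, 2.17 and 0.272 FPKM in the calves and 70.5, 66.2 and 74.9 FPKM in the bulls, a log2 fold change of 4.74 ± 0.48 (adjusted p = 0.000371) and 4.20 ± 0.19 without calf 3. KIF2A, the widely expressed member, which also acts in neurons, read 9.41, 10.6 and 44.4 FPKM in the calves and 41.5, 49.7 and 58.0 FPKM in the bulls. Calf 3 lay between the bulls, and KIF2A was not called with all libraries (1.51 ± 0.58, adjusted p = 0.0703) but was called higher without calf 3 (2.19 ± 0.16, adjusted p = 5.73e-05).

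KIF15, a motor that helps to keep the spindle bipolar, was 4.59, 4.78 and 0.155 FPKM in the calves and 40.7, 46.5 and 46.0 FPKM in the bulls. Its log2 fold change was 3.76 ± 0.64 (adjusted p = 0.00337), and 3.00 ± 0.11 without calf 3, which lay far below the other calves. KIF11, the main motor that pushes spindle poles apart, was 5.87, 4.45 and 0.569 FPKM against 13.6, 12.5 and 13.8 FPKM, a smaller change of 1.88 ± 0.56 (adjusted p = 0.0305), or 1.23 without calf 3. KIFC1, which walks to the minus end and focuses spindle poles, was 5.35, 2.73 and 1.07 FPKM against 13.2, 17.5 and 14.6 FPKM (2.13 ± 0.42, adjusted p = 0.00613, and 1.71 without calf 3).

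KIF22, a chromosome-bound motor, read 7.94, 6.31 and 0.553 FPKM in the calves and 21.8, 23.8 and 28.4 FPKM in the bulls (log2 fold change 2.45 ± 0.67, adjusted p = 0.0225, and 1.66 without calf 3). KIF18A, which damps the movements of chromosomes at the spindle equator, read 2.49, 2.21 and 0.521 FPKM against 8.02, 9.10 and 7.11 FPKM (1.81 ± 0.35, adjusted p = 0.00589, and 1.43 without calf 3). The bulls did not overlap with any calf for either gene. Of the other chromosome and astral microtubule motors, KIF4A had overlapping groups, at 2.57, 1.5 and 0.246 FPKM in calves and 3.11, 2.94 and 2.57 FPKM in bulls. KIF18B read 1.17, 1.16 and 0.0547 FPKM against 1.45, 2.02 and 1.53 FPKM. Neither was called, with log2 fold changes of 0.79 and 0.64, or 0.37 and 0.29 without calf 3, that became −0.06 and −0.42 under quantile normalization.

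The motors of the midzone and of abscission were also higher in bulls, by smaller amounts than KIF2B and KIF2C. KIF23, a part of centralspindlin, read 4.44, 2.62 and 0.884 FPKM in the calves and 15.1, 17.2 and 14.8 FPKM in the bulls (2.32 ± 0.40 on the log2 scale, adjusted p = 0.00333, and 1.91 without calf 3). KIF20A, which carries the chromosomal passenger complex to the midzone, read 4.45, 3.48 and 0.149 FPKM against 9.75, 10.6 and 9.23 FPKM (1.84 ± 0.60, adjusted p = 0.0412, and 1.13 without calf 3). Under quantile normalization KIF20A was at 1.16 (adjusted p = 0.0718), or 0.62 without calf 3, and was not called. KIF14, which recruits citron kinase to the midbody, read 2.53, 2.04 and 0.146 FPKM against 5.24, 6.72 and 4.74 FPKM, and its log2 fold change of 1.5 (adjusted p = 0.0319) was 0.99 without calf 3, just under the fold change of 2. KIF20B, which acts in abscission, read 5.76, 5.26 and 1.84 FPKM against 10.6, 11.4 and 10.4 FPKM, with 1.26 (adjusted p = 0.0260) and 0.86. In both of these genes the adjusted p without calf 3 was lower, at 0.00295 for KIF14 and 0.000912 for KIF20B, and it was the size of the change that no longer passed.

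The cargo transport kinesins had no common direction, and the calls of 5 of the 12 changed when calf 3 was left out. With all libraries, KIF21B, KIFC3 and KIF16B were called higher in bulls and KIF13A lower, 3 and 1 of 12, beside 35.7% and 9.61% of all genes. Without calf 3, KIF5C, KIF21B, KIFC3, KIFC2 and KIF5B were called higher and KIF13A and KIF1C lower, 5 and 2 of 12, beside 37.9% and 13.6%. On the log2(FPKM + 1) scale, calf 3 was at least 2-fold above the mean of the other calves in 9 of the 12, against 13.8% of all genes tested, and at least 4-fold above it in 7, against 5.42%. The summed level was 88.7, 99.4 and 651 FPKM in the calves and 339, 340 and 370 FPKM in the bulls. The neural markers were raised in the same library, and their part in these levels was not tested.

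The heavy chains of conventional kinesin differed among themselves. KIF5C, the form enriched in neurons, on chromosome 2 (47212782 to 47368935), read 2.14, 3.38 and 112 FPKM in the calves and 114, 118 and 147 FPKM in the bulls. Calf 3 was at nearly the level of bull 1, the fit of all libraries gave a log2 fold change of 3.45 ± 1.36 (adjusted p = 0.0743), and the fit without calf 3 gave 5.09 ± 0.19 (adjusted p = 3.75e-06), the third largest of the family. The bulls were 45.8 times the mean of calf 1 and calf 2. KIF5B, the form of all tissues, read 29.7, 35.8 and 121 FPKM in the calves and 62.1, 82.3 and 68.6 FPKM in the bulls, with log2 fold changes of 0.47 (adjusted p = 0.486) and, without calf 3, 1.09 (adjusted p = 0.000907), and −0.37 under quantile normalization. Without calf 3 and under quantile normalization, KIF5B was at 0.27 and was not called. KIF5A, a neuronal form, was 1.21, 1.32 and 53.6 FPKM in the calves and 2.57, 2.96 and 2.11 FPKM in the bulls, and was not called in either fit (−0.89 with all libraries and 0.64 without calf 3).

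KIF21B, a motor of dendrites that also limits microtubule growth, lies on chromosome 16 (79548497 to 79581778) and read 5.57, 5.47 and 26.4 FPKM in the calves and 73.3, 56.2 and 67.0 FPKM in the bulls. It was called higher with all libraries (2.65 ± 0.59, adjusted p = 0.00980) and without calf 3 (3.34 ± 0.14, adjusted p = 5.72e-06). KIFC3, a minus-end motor of cell junctions, read 6.82, 5.54 and 10.9 FPKM against 46.2, 40.2 and 42.0 FPKM (2.37 ± 0.25, adjusted p = 0.000438, and 2.61 without calf 3). For both, each bull was above calf 3 as well as above calf 1 and calf 2. KIFC2, a minus-end motor known from neurons, read 4.40, 4.66 and 9.22 FPKM against 10.4, 9.75 and 12.6 FPKM and was called without calf 3 (1.1 ± 0.15, adjusted p = 0.000752) but not with all libraries weighted equally (0.81, adjusted p = 0.0575). Its call without calf 3 was lost under quantile normalization, where the log2 fold change was 0.61. KIF16B, a motor of early endosomes, read 4.92, 4.70 and 3.43 FPKM against 11.1, 9.84 and 9.93 FPKM. It was called with all libraries (1.08, adjusted p = 0.00322) but fell under the fold change of 2 without calf 3 (0.95, adjusted p = 0.000634). The call of KIF16B was also lost under quantile normalization (0.57) and under median-of-ratios scaling. As for KIF19, it was lost on Ensembl transcripts only, at 0.83, or 0.68 without calf 3.

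KIF13A and KIF1C were the cargo motors called lower in bulls with all libraries or without calf 3. KIF13A, a motor of recycling endosomes on chromosome 23 (39525135 to 39728514), read 6.62, 6.38 and 19.1 FPKM in the calves and 2.13, 2.53 and 2.50 FPKM in the bulls. Its log2 fold change was −1.62 ± 0.42 (adjusted p = 0.0178) and −1.15 ± 0.14 without calf 3 (adjusted p = 0.000477). KIF1C, a motor of Golgi and secretory vesicles, read 15.3, 13.0 and 101 FPKM against 4.33, 5.26 and 6.38 FPKM, and was called lower without calf 3 (−1.27 ± 0.18, adjusted p = 0.000897) but just missed the call with all libraries (−2.19 ± 0.78, adjusted p = 0.0540), where quantile normalization restored it (−2.83, adjusted p = 0.0239). All bulls were below all calves for both genes, as they were for KIF21A and KIF13B and for 21.3% of all genes tested.

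The remaining cargo motors were set apart mainly by calf 3. KIF1A, which carries synaptic vesicle precursors, was 1.03, 1.5 and 97.5 FPKM in the calves and 2.66, 3.38 and 2.86 FPKM in the bulls, so calf 3 was 77.2 times the mean of the other calves. Its log2 fold change was −1.0 (adjusted p = 0.598) with all libraries and 0.81 without calf 3 (adjusted p = 0.00470), a change too small for a call. KIF21A, which restrains microtubule growth at the cell cortex, was 5.15, 10.8 and 60.5 FPKM against 4.51, 4.21 and 3.50 FPKM, and KIF13B, a motor of membrane proteins, was 5.97, 6.90 and 36.0 FPKM against 5.48, 5.28 and 5.83 FPKM. Neither was called in either fit, with −1.70 and −0.96 on the log2 scale, or −0.75 and −0.19 without calf 3.

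**Figure D3:**
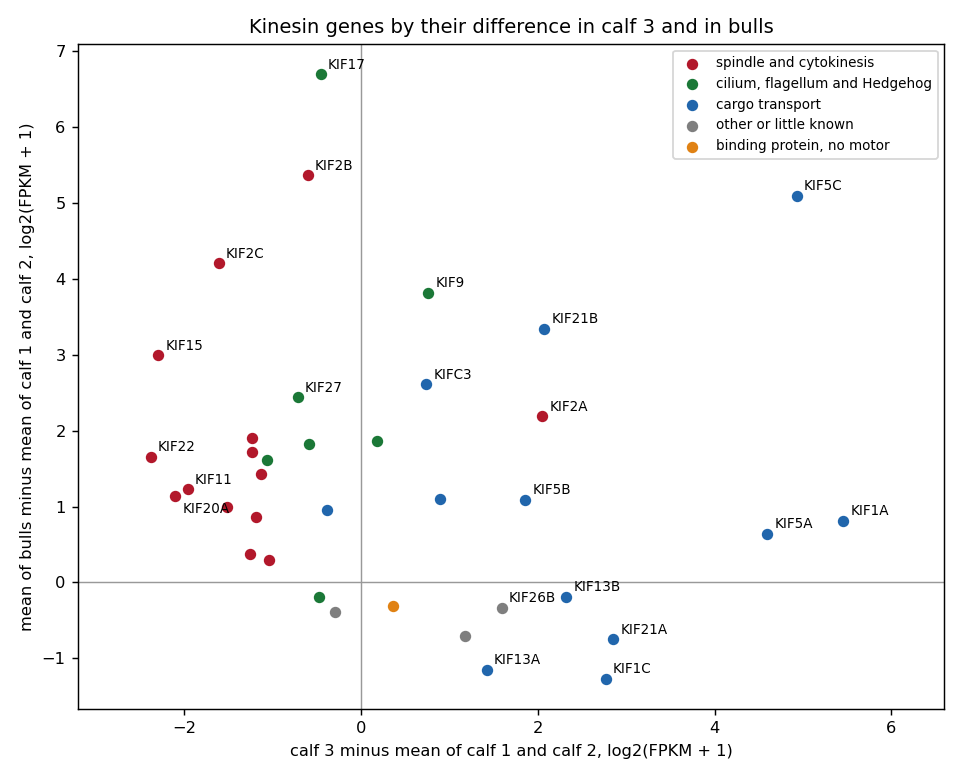
Each point is a kinesin gene, placed by the difference of calf 3 from the mean of calf 1 and calf 2 (horizontal) and of the bulls from the same mean (vertical), both in log2(FPKM + 1) and both sharing calf 1 and calf 2. Most spindle genes lie to the left of 0 and above it, the ciliary genes KIF17, KIF9 and KIF27 near 0 on the horizontal axis and high, and KIF1A and KIF5A far to the right and near 0 on the vertical axis, while KIF5C is high on both.

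The little known members were low. KIF26A, a relative of kinesins without motor activity, read 1.60, 2.10 and 5.41 FPKM in the calves and 0.710, 0.560 and 0.979 FPKM in the bulls. It was called lower with all libraries (−1.1 ± 0.36) but not without calf 3 (−0.71 ± 0.16), where the fold change was under 2. Having passed the filter through the calves only, KIF26A was bound to be lower in bulls. KIF26B was 0.35, 0.429 and 3.18 FPKM against 0.101, 0.101 and 0.113 FPKM, and KIF12 was below 0.5 FPKM in all libraries. The binding protein KIF1BP was the second highest member in calf 1 and calf 2, at 21.2, 30.7 and 33.0 FPKM in the calves and 22.1, 21.2 and 18.0 FPKM in the bulls, and was not called (−0.43 ± 0.21, adjusted p = 0.131, and −0.31 without calf 3). Under quantile normalization, which lowers the bulls, it was called lower, at −1.13.

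The transcript table lists 156 transcripts of the 37 genes, among 108527 in all, of which 115 carry Ensembl identifiers and 41 were assembled by the authors. Of the 156, 56 passed the filter and were tested, with 37 called higher in bulls, 1 lower and 18 not called, while 34.8% of all transcripts tested were higher and 9.37% lower. Without calf 3, 38 were higher and 2 lower, beside 36.1% and 13.1%. Quantile normalization gave 23 higher and 3 lower, beside 21.6% and 25.3%. Of the 56, 14 passed the filter through the bulls only, 13 of them called higher, and such transcripts were bound to be higher in bulls. The transcript called lower was KIF13A-204, at 5.28, 5.20 and 15.4 FPKM in calves and 0.506, 1.84 and 1.97 FPKM in bulls (−1.88, and −1.42 without calf 3). Of the 15 genes with at least 2 tested transcripts, KIF2A, KIF16B, KIF27, KIFC2 and KIFC3 held transcripts that differed in their call.

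In KIF16B the transcript that prevailed in calves was not the one that prevailed in bulls. KIF16B-202 read 4.10, 3.55 and 2.37 FPKM in the calves and 2.38, 2.43 and 3.29 FPKM in the bulls (log2 fold change −0.22 ± 0.24, adjusted p = 0.478, and −0.39 without calf 3). KIF16B-201 read 0.653, 0.00357 and 0.396 FPKM in the calves and 3.96, 3.47 and 3.94 FPKM in the bulls, and since it passed the filter through the bulls only, its fold change is a description (1.85 ± 0.22, and 1.89 without calf 3). The share of KIF16B-202 in the level of the gene was 79.6% in calf 1 and calf 2 and 26.3% in bulls, and that of KIF16B-201 was 6.82% and 36.9%. The difference between the transcripts was not tested.

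In KIF2A, calf 3 differed from the other calves most in a single transcript. KIF2A-203, the main one, read 7.74, 9.35 and 16.5 FPKM in calves and 35.1, 40.3 and 43.7 FPKM in bulls (1.80 ± 0.29, adjusted p = 0.00286, and 2.09 without calf 3). KIF2A-202 read 0.445, 0.0376 and 24.3 FPKM in calves and 1.06, 1.80 and 3.48 FPKM in bulls, and held 54.8% of the gene in calf 3, 2.41% in calf 1 and calf 2 and 4.25% in bulls. It was not called with all libraries (−0.18, adjusted p = 0.911) and was called without calf 3 (1.27, adjusted p = 0.0262). KIF2A-201 was also called higher with all libraries (1.61 ± 0.39, adjusted p = 0.0145, and 1.96 without calf 3).

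The other transcripts that differed in their call varied between animals of one age or were assembled. KIF27-203 read 0.561, 3.01 and 0.0364 FPKM in calves and 0, 7.28 and 12.5 FPKM in bulls and was not called, while KIF27-201 and KIF27-202 were (1.87 and 3.92, or 1.86 and 3.25 without calf 3). KIFC3-201 read 0.748, 1.98 and 2.86 FPKM in calves and 7.44, 7.57 and 0.580 FPKM in bulls and was not called, while KIFC3-202 and KIFC3-203 were (2.70 and 1.38, or 2.82 and 1.66 without calf 3). In KIFC2, the Ensembl transcript KIFC2-201 was not called with all libraries (0.75, adjusted p = 0.108) and was without calf 3 (1.08, adjusted p = 0.00584), and an assembled transcript that passed the filter through the bulls only was at 1.15 and 1.14.

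**Figure D4:**
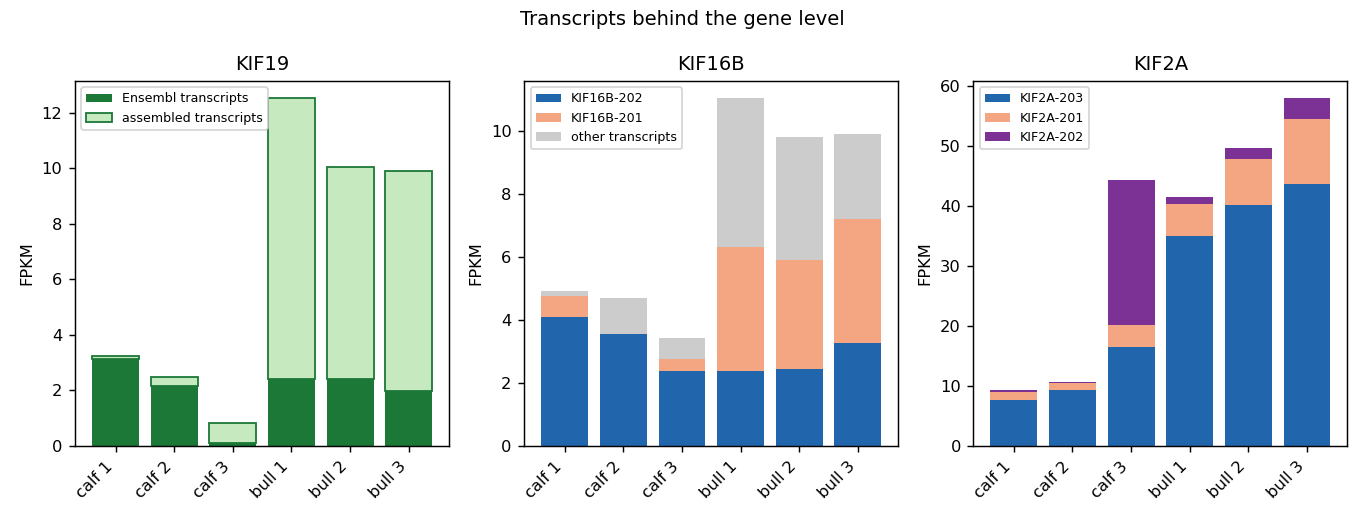
FPKM of KIF19, KIF16B and KIF2A in each of the 6 libraries, stacked by transcript, with a linear axis for each gene that starts at 0. The pale part of the KIF19 bars, the assembled transcripts, is 7.62 to 10.1 FPKM in bulls and at most 0.747 FPKM in calves, KIF16B-201 fills more of the bars in bulls, and KIF2A-202 (purple) fills 54.8% of the bar of calf 3.

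Genes that work with kinesins were read from the same fit. Of 39 names, 38 were in the table and 37 were tested, with 18 higher in bulls, 1 lower and 18 not called, beside 35.7% and 9.61% of all genes. Without calf 3, 19 were higher, beside 37.9%, and RHOT1, the lower one, lost its call by the size of its change. Quantile normalization gave 14 higher and 6 lower, beside 21.1% and 25.1%. Of the 15 partners in the spindle and midzone, 11 were called higher with all libraries and 11 without calf 3, of which 10 were the same. BIRC5, a subunit of the chromosomal passenger complex, read 7.24, 5.59 and 1.81 FPKM in calves and 82.1, 64.7 and 57.6 FPKM in bulls (3.68 ± 0.43, adjusted p = 0.000639, and 3.21 without calf 3). PRC1, which bundles the midzone microtubules on which KIF4A acts, read 6.12, 3.87 and 1.46 FPKM against 41.2, 40.5 and 38.9 FPKM (3.23 ± 0.39, adjusted p = 0.000773, and 2.81 without calf 3). Both thus rose while KIF4A was not called. CENPE, the kinetochore kinesin, read 3.56, 2.83 and 1.25 FPKM against 5.52, 7.98 and 7.53 FPKM (1.22 ± 0.31, adjusted p = 0.0176), and 0.93 without calf 3, where it was not called.

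FHL5 and CREM had the largest changes among the partners. Of the 6 partners of the cilium and of spermatids, 3 were called higher in both fits, beside 35.7% and 37.9% of all genes. CCP110, CEP97 and SUFU were not called in either fit, with log2 fold changes of −0.06, 0.07 and −0.27 with all libraries. FHL5, the coactivator that KIF17 moves in spermatids, read 0.0174, 0.0285 and 2.65 FPKM in calves and 63.6, 62.7 and 76.5 FPKM in bulls (5.45 ± 0.52, adjusted p = 0.000300, and 6.06 without calf 3). CREM, the transcription factor that FHL5 activates, read 2.92, 3.56 and 2.83 FPKM against 140, 149 and 139 FPKM (5.13 ± 0.14, adjusted p = 4.27e-06, and 5.08 without calf 3). STK36, the kinase that works with KIF27, read 2.36, 3.00 and 1.14 FPKM against 17.2, 15.8 and 15.9 FPKM (2.50 ± 0.27, adjusted p = 0.000451, and 2.24 without calf 3). KIF17, FHL5 and CREM were thus each higher in all bulls than in any calf, as were 46.1% of all genes tested.

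Among light chains and adaptors, which include KIF1BP, 4 of the 16 tested were called higher and 1 lower, beside 35.7% and 9.61% of all genes. Without calf 3, 5 were called higher, beside 37.9%. Under quantile normalization 2 were higher and 5 lower, beside 21.1% and 25.1%. The list is too short to tell these shares from those of all genes. KLC3, the light chain of spermatids, read 3.12, 4.93 and 0.0571 FPKM in calves and 24.7, 24.4 and 25.2 FPKM in bulls (3.12 ± 0.64, adjusted p = 0.00701, and 2.38 without calf 3). KTN1, a membrane protein that binds kinesin at the endoplasmic reticulum, read 35.3, 40.6 and 50.7 FPKM against 186, 187 and 167 FPKM (2.08 ± 0.19, adjusted p = 0.000235, and 2.22 without calf 3). KLC1, the light chain of many tissues including brain, read 20.3, 23.6 and 96.7 FPKM against 13.8, 12.3 and 15.3 FPKM and was not called (−1.34, adjusted p = 0.103, and −0.64 with adjusted p = 0.00560 without calf 3). RHOT1, which ties mitochondria to kinesin, read 13.3, 15.0 and 34.2 FPKM against 7.98, 8.2 and 8.55 FPKM, and was called lower with calf 3 (−1.12 ± 0.36, adjusted p = 0.0393) but not without it (−0.71, adjusted p = 0.00181). KLC3 was highest in bulls and lowest in calf 3, whereas KLC1 and RHOT1 were highest in calf 3 and lowest in bulls.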

How the data were processed

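The authors sequenced 1 strand-specific library of total RNA, depleted of ribosomal RNA, per testis. According to the methods, poor reads and ribosomal reads (Bowtie2) were removed, the rest were mapped with TopHat2 and transcripts were assembled with StringTie. The tool behind the gene values is not given in the sources used here. The deposited values are FPKM per gene and per transcript, with no counts, so depth and counting error are unknown. Summed FPKM ranged from 587066 in calf 3 to 1098720 in calf 2. Between 33 and 34 members reached 1 FPKM in the other libraries and 23 in calf 3. The methods name a UMD assembly, but 36 of 36 members matched by symbol to RefSeq overlapped that locus on an ARS-UCD assembly. No file used here holds sequences of these genes.

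Groups came from the sample labels. Features below 1 FPKM in more than 3 of the 6 libraries were dropped. A 2-group model of log2(FPKM + 1) was fitted with limma 3.58.1 (lmFit, eBayes with trend, two-sided) in R 4.3.3, with Benjamini-Hochberg adjustment across 18115 genes or 23212 transcripts. The pseudocount of 1 makes fold changes of low genes too small. In a test on simulated data with 200 features changed by a log2 fold change of 2, calls were made for 184 genes (92%) and 163 transcripts (81.5%), beside 0 and 5 unchanged features. The simulated spread was taken from calf 1, calf 2 and the bulls. The recovery therefore does not describe the fit of all 6 libraries, in which calf 3 widens the spread of many genes. Alternatives changed the pseudocount, filter, scaling, weights, trend and replicate block, and left out each library. The use of Ensembl transcripts only was added after seeing the data. Every member could be named, partners by the largest rise or fall among those called in each list (KLC1, CENPE and STK36 were added after their values were seen), and transcripts where those of a gene differed in call. The members and lists were chosen with earlier results of these data known. Figures were drawn with matplotlib 3.10.9.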

Additional observations from a re-analysis of the deposited data

How the results depend on the processing

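Of the 22 kinesin genes called, 12 kept their call in each alternative in which they were tested and 14 kept it with each library left out in turn, where the count of calls ranged from 15 to 24, that of transcripts from 30 to 40 and that of partners from 13 to 19. KIF2B is counted in the 22, the 12 and the 14, and KIF26A in the 22. Shares over all genes are given above only for the fits without a bull or without calf 3. Asking for an FPKM of at least 1 in all libraries left 20 genes and 19 transcripts of the family to be tested, of which 9 genes and 9 transcripts were called. The share of all genes called under this filter is not given here, so these counts cannot be set against it. Direction turned only in members that were not called with all libraries or, for KIF19, through the choice of transcripts. Quantile normalization turned KIF5B to −0.37, KIF4A to −0.061 and KIF18B to −0.42, and without calf 3 it turned KIF4A to −0.30, KIF18B to −0.60 and KIF1A to 0.068. KIF5A and KIF1A turned with array weights (0.57 and 0.72), without calf 3 (0.64 and 0.81), with median-of-ratios scaling as well (0.48 and 0.65), and on Ensembl transcripts without calf 3 (0.64 and 0.23), where KIF19 was −0.15. Over the fits that left out 1 library, KIF5A ranged from −1.67 to 0.64, KIF1A from −1.99 to 0.81 and KIF7, near 0 throughout, from −0.19 to 0.20, with 0.038 without calf 1 and 0.059 without calf 2. The cause of these turns was not tested beyond the library or transcripts left out.

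Calves and bulls share the numbers 1 to 3 in the labels. Deviations of same-numbered libraries from their group means correlated at 0.0277, 0.0246 and 0.0341 over genes. These values are small, but each of the 6 libraries correlated best with its own number. With so few libraries, the correlations cannot decide whether the numbers pair the animals. With the replicate block, 24 genes (21 higher and 3 lower), 39 transcripts and 19 partners were called. No share of all genes or transcripts is given for this setting, so whether these counts differ from it is unknown. FPKM without counts sets the limit: the level of members below 1 FPKM in most libraries, such as KIF12 and KIF26B, cannot be given an error other than the spread of 3 animals, and the label of calf 3 leaves 2 calves for the comparison without it.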

Other observations

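Of the 41 assembled transcripts summed into the kinesin genes, 16 have a name with the suffix AS and 9 with the suffix OT, and the table gives no strand for any transcript. KIF27-AS1 read 0.0263, 0 and 0 FPKM in the calves and 2.67, 3.37 and 2.04 FPKM in the bulls. KIF2B-AS3 read 0.0239, 2.8e-05 and 0 FPKM against 1.67, 1.73 and 1.69 FPKM. KIFC3-AS1 read 0.0895, 0.00623 and 0.212 FPKM against 4.79, 2.68 and 2.91 FPKM, and KIF9-AS1 read 0.521, 0.128 and 0.847 FPKM against 6.21, 1.94 and 2.49 FPKM. KIF5B-AS1 was at 0.0971, 0.283 and 0.587 FPKM against 1.16, 1.36 and 1.24 FPKM. All 5 passed the filter on low values through the bulls only, so they were bound to be higher in bulls and no test is given. KIF2B, KIF9, KIF27 and KIFC3 kept their calls with Ensembl transcripts only. KIF16B and KIF19, which also hold assembled transcripts, lost theirs in that fit (0.83 and 0.43 on the log2 scale). The 5 transcripts named here were chosen for mention after their values were seen.

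Assembled transcripts also bore on KIF1A. Its Ensembl transcripts read 1.34, 1.64 and 1.95 FPKM in bulls, against 1.31, 1.74 and 0.910 FPKM for the assembled ones, while in calf 3 the Ensembl transcripts read 97.3 FPKM and the assembled ones 0.145 FPKM.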
